A study of Homo sapiens with 11 samples.

Results

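Clone C8, the gelsolin-overexpressing HCT116 line with the brightest gelsolin (GSN) probe, was compared with the other gelsolin-overexpressing clones, C1, C2 and C3. Its members were chosen by the label of the line: 2 arrays of C8 and 6 arrays of C1, C2 and C3, out of 11 arrays of 6 lines. HCT116 is a colorectal carcinoma cell line. All gelsolin-overexpressing lines carried the coding sequence of human cytoplasmic gelsolin in the pIRES2-EGFP plasmid and had been selected with G418, an antibiotic that kills cells without the plasmid's resistance gene. The empty vector control lines V4 (2 arrays) and V5 (1 array) carried the same plasmid without gelsolin and went through the same selection. RNA of 2 independent harvests of each gelsolin-overexpressing clone was measured on Illumina HumanRef-8 beadchips, with the first harvest of each on beadchip 1 and the second on beadchip 2, so that harvest and beadchip cannot be told apart. C8 is a single line, and what belongs to this line cannot be told apart from what belongs to its level of gelsolin.

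Gelsolin is a calcium-regulated protein that severs actin filaments and caps their fast-growing ends, and it takes part in the remodelling of the cytoskeleton during cell movement. Lines taken through drug selection after transfection can differ from each other in where and how often the plasmid entered the genome, and also in ways unrelated to the plasmid. The comparison therefore asked in which genes C8 stood apart from lines that carry the same construct. A gene was called apart when the C8 array lay above, or below, the arrays of all 3 other clones on both beadchips.

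Signals are average bead intensities divided by the median of the array and multiplied by the common median of 88.35, so that a value near 88.35 is the signal of a middling, mostly dim probe. The array medians before scaling were 88.35 and 92.1 in C8, 80.1 to 105.0 over all gelsolin arrays and 75.7 to 88.7 in the vector lines. A gene was tested when the mean of at least 1 of the 4 clones exceeded the common median, which left 10363 genes, of which 9468 had a gene symbol and 96 passed only through C8. The colon epithelial genes EPCAM, KRT8, KRT18, KRT19, CDH1 and CDX2 passed this filter, while CDX1, VIL1 and LGALS4 did not. The signal of all 9 probes summed to between 25571 and 28748 in C8, 22283 and 29585 in C1 to C3, and 19537 and 27513 in the vector lines. Markers of cells that such a culture should lack mostly stayed below the common median. Of these, 1 of 10 fibroblast genes (COL1A1), 2 of 9 leukocyte genes (CD68 and LYZ) and 1 of 7 endothelial genes (VWF) exceeded it in any clone. On both beadchips VWF and 1 of the 2 leukocyte genes lay above all of C1 to C3 in C8, beside 4.07% of all genes, and COL1A1 did not. The summed signals of the whole lists in C8 lay between 591 and 635 (fibroblast), 876 and 1268 (leukocyte) and 493 and 538 (endothelial). These were inside or close to the ranges in C1 to C3 (557 to 652, 678 to 1542 and 461 to 517).

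The GSN probe had signals of 260 and 271 in C8. The other clones had 217 and 235 (C1), 187 and 208 (C2) and 205 and 215 (C3), and the vector lines had 141 and 141 (V4) and 140 (V5). C8 was thus the brightest line on both beadchips and C1 came next without overlap. C2 and C3 overlapped each other, and all 8 gelsolin arrays lay above the 3 vector arrays. The difference between C8 and the mean of C1 to C3 was 0.33 ± 0.12 (SE) on the log2 scale, with 0.36 on beadchip 1 and 0.31 on beadchip 2. Because C8 is described by this probe, the value is a description and not a test. A second GSN probe was dim, with 82.8 and 87.4 in C8, 72.1 to 82.1 in C1 to C3 and 76 to 80.8 in the vector lines. Whether either probe lies inside the transfected coding sequence was not tested.

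FEN1, the flap endonuclease that trims Okazaki fragments during DNA replication, gave a different picture. Its signals were 474 and 454 in C8, 623 and 489 (C1), 411 and 701 (C2), 512 and 593 (C3). In the vector lines they were 309, 327 and 321. C8 lay inside the range of the other clones on beadchip 1 and below it on beadchip 2, so FEN1 was not apart, and the difference of -0.24 ± 0.19 (SE, log2) did not pass the test (limma, adjusted p = 0.529 by the Benjamini-Hochberg method over every gene tested).

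**Figure D1:**
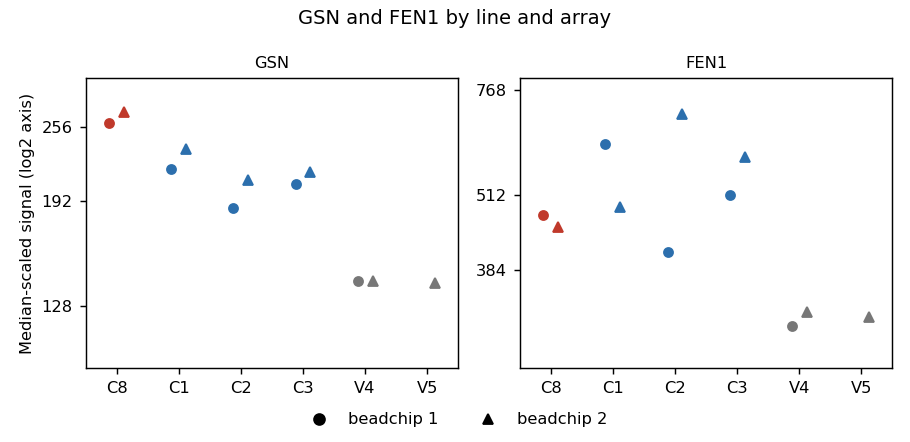
Median-scaled signal on a log2 axis of GSN and FEN1, with 1 point per array, circles for beadchip 1 and triangles for beadchip 2. For GSN the C8 arrays, at 260 and 271, lie above every other array; for FEN1 they lie among or below the arrays of C1 to C3 and above the vector arrays.

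Of the 10363 genes, 13 differed between C8 and the mean of C1 to C3 (0.125% of those tested; limma with beadchip as a block, adjusted p under 0.05). Of these, 6 were higher in C8 (0.0579%) and 7 were lower (0.0675%). The higher genes were SLC1A3, MYL2, DACT1, IL27, PDE5A and a probe without a gene symbol (ILMN_1801442), and the lower genes were HAS3, IGF2BP3, EFNB2, PHLDA2, NTSR1, PKIB and TFDP1. All 13 were apart on both beadchips. With quantile normalization 7 of the 13 passed (0.0675%), 5 higher (0.0482%) and 2 lower (0.0193%). The lower genes that still passed were IGF2BP3 and NTSR1, while EFNB2, PHLDA2, PKIB, HAS3 and TFDP1 had adjusted p between 0.0549 and 0.0791 (limma). Without the beadchip block 6 genes passed (1 higher and 5 lower), all among the 13. The spread in this test is that between the 2 harvests of a clone, so its p-values concern these 4 lines as grown. When the lines themselves served as replicates, with the harvests averaged, no gene passed (smallest adjusted p = 0.213 by limma, with 1318 genes at an unadjusted p under 0.05). The calls rested on C1 as well: without C1, or without either of its arrays, no gene passed by limma, with 1780, 1732 and 1539 genes at an unadjusted p under 0.05.

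The largest rise among the 13 genes was that of SLC1A3, a sodium-dependent glutamate and aspartate transporter best known from astrocytes. Its signals were 1720 and 995 in C8, 436 and 237 (C1), 268 and 112 (C2), 562 and 656 (C3), against 429, 202 and 154 in the vector lines. Every C8 array exceeded every other array, although C8, C1 and C2 were lower on beadchip 2 than on beadchip 1 and C3 was not. The difference was 2.02 ± 0.25 on the log2 scale (SE; adjusted p = 0.0342), a ratio of 4.05.

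MYL2, the regulatory light chain of slow skeletal and ventricular muscle myosin, had 235 and 466 in C8. It had 70.7 and 75.8 (C1), 80.5 and 67 (C2), 96.3 and 140 (C3), and 81, 68.3 and 63.9 in the vector lines. The other lines thus stayed near the floor of the array and only the second harvest of C3 stood clearly out of it. The difference was 1.95 ± 0.22 (SE, log2; adjusted p = 0.0333), and MYL2 had the widest gap of all genes, with C8 at least 2.43-fold above the nearest other clone on both beadchips. TNNC1, the calcium-binding subunit of troponin in slow skeletal and heart muscle, also had a gap of over 1.5-fold. Its signals were 418 and 342 in C8 and 158 to 226 in C1 to C3, against 68.1 to 97.8 in the vector lines. Its difference of 0.996 ± 0.159 (SE, log2) narrowly missed the threshold (adjusted p = 0.0584), and it was singled out after its values were seen.

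DACT1, an adaptor that binds Dishevelled in Wnt signalling, had 525 and 285 in C8, 99.5 and 98.5 (C1), 109 and 69 (C2), 171 and 190 (C3). The vector lines had 87.4, 107 and 85.5. C3 was the nearest clone and C8 exceeded it on both beadchips, with a difference from the mean of C1 to C3 of 1.74 ± 0.20 (SE, log2; adjusted p = 0.0272). The other rises were of dim probes. PDE5A, the cyclic GMP phosphodiesterase, had 120 and 152 in C8 and 64.5 to 102 in C1 to C3, with 93.5 to 109 in the vector lines. IL27, a subunit of the cytokine interleukin 27, had 139 and 117 in C8, 85.2 and 56.2 (C1), 95.8 and 57.2 (C2), 98.4 and 61.5 (C3). All 4 clones were dimmer for IL27 on beadchip 2, and the vector lines, with 120, 111 and 85.8, lay nearer to C8 than to the other clones. It was the only one of the 13 that passed the filter on dim probes through C8 alone, so that it had to be higher there. The probe without a symbol had 192 and 221 in C8 and 59.9 to 173 in C1 to C3, with 79.7 to 120 in the vector lines.

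For 4 of the genes lower in C8 the mean of C1 to C3 also lay below that of the vector lines, so that C8 stood at the far end of all lines. EFNB2, the ligand ephrin-B2 for Eph receptors on neighbouring cells, had 317 and 391 in C8, 986 and 997 (C1), 659 and 655 (C2), 700 and 532 (C3), against 2045, 2317 and 2195 in the vector lines. The C8 arrays were below every other array and the difference was -1.06 ± 0.15 (SE, log2; adjusted p = 0.0333). HAS3, an enzyme that makes the matrix polysaccharide hyaluronan, had the largest fall of the 13, -1.28 ± 0.19 (SE, log2; adjusted p = 0.0444). Its signals were 109 and 171 in C8, 486 and 377 (C1), 410 and 463 (C2), 211 and 177 (C3), and 1753, 883 and 1201 in the vector lines. On beadchip 2 the gap to C3 was small, 171 in C8 against 177 in C3.

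PKIB, an inhibitor of cyclic AMP-dependent protein kinase, followed the same order, with 237 and 210 in C8, 412 and 353 (C1), 683 and 688 (C2), 286 and 244 (C3), and 1031 to 1321 in the vector lines. NTSR1, the receptor for the gut peptide neurotensin, had 1358 and 1462 in C8, 3590 and 3894 (C1), 2432 and 2981 (C2), 1870 and 2344 (C3), and 3593 to 4137 in the vector lines. C1 was here at the level of the vector lines and C8 at the far end. The differences from C1 to C3 were -0.88 ± 0.12 for PKIB (adjusted p = 0.0335) and -0.97 ± 0.11 for NTSR1 (adjusted p = 0.0176), as SE on the log2 scale.

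The remaining lower genes did not share this order. IGF2BP3, an RNA-binding protein of fetal tissues and many carcinomas, had the smallest p-value of all genes. It had 819 and 829 in C8, 1591 and 1379 (C1), 2142 and 2052 (C2), 2179 and 1718 (C3), while the vector lines had 1501, 1082 and 1292, with a mean between those of C8 and the other clones. Both C8 arrays were below all 9 others (difference -1.14 ± 0.12, SE, log2; adjusted p = 0.0176).

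PHLDA2, an imprinted gene that restrains placental growth, had 563 and 549 in C8, 1505 and 1135 (C1), 1047 and 1054 (C2), 993 and 999 (C3). The vector lines, with 831, 1121 and 1016, overlapped C1 to C3, and the difference was -0.999 ± 0.128 (SE, log2; adjusted p = 0.0333). TFDP1, the DP partner with which E2F factors bind DNA at genes of the cell cycle, had 1090 and 1401 in C8 and 2033 to 2318 in the other clones. It was lower in C8 than in every other array, the vector lines (1982, 1704 and 1698) included, with a difference of -0.82 ± 0.11 (SE, log2; adjusted p = 0.0333).

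**Figure D2:**
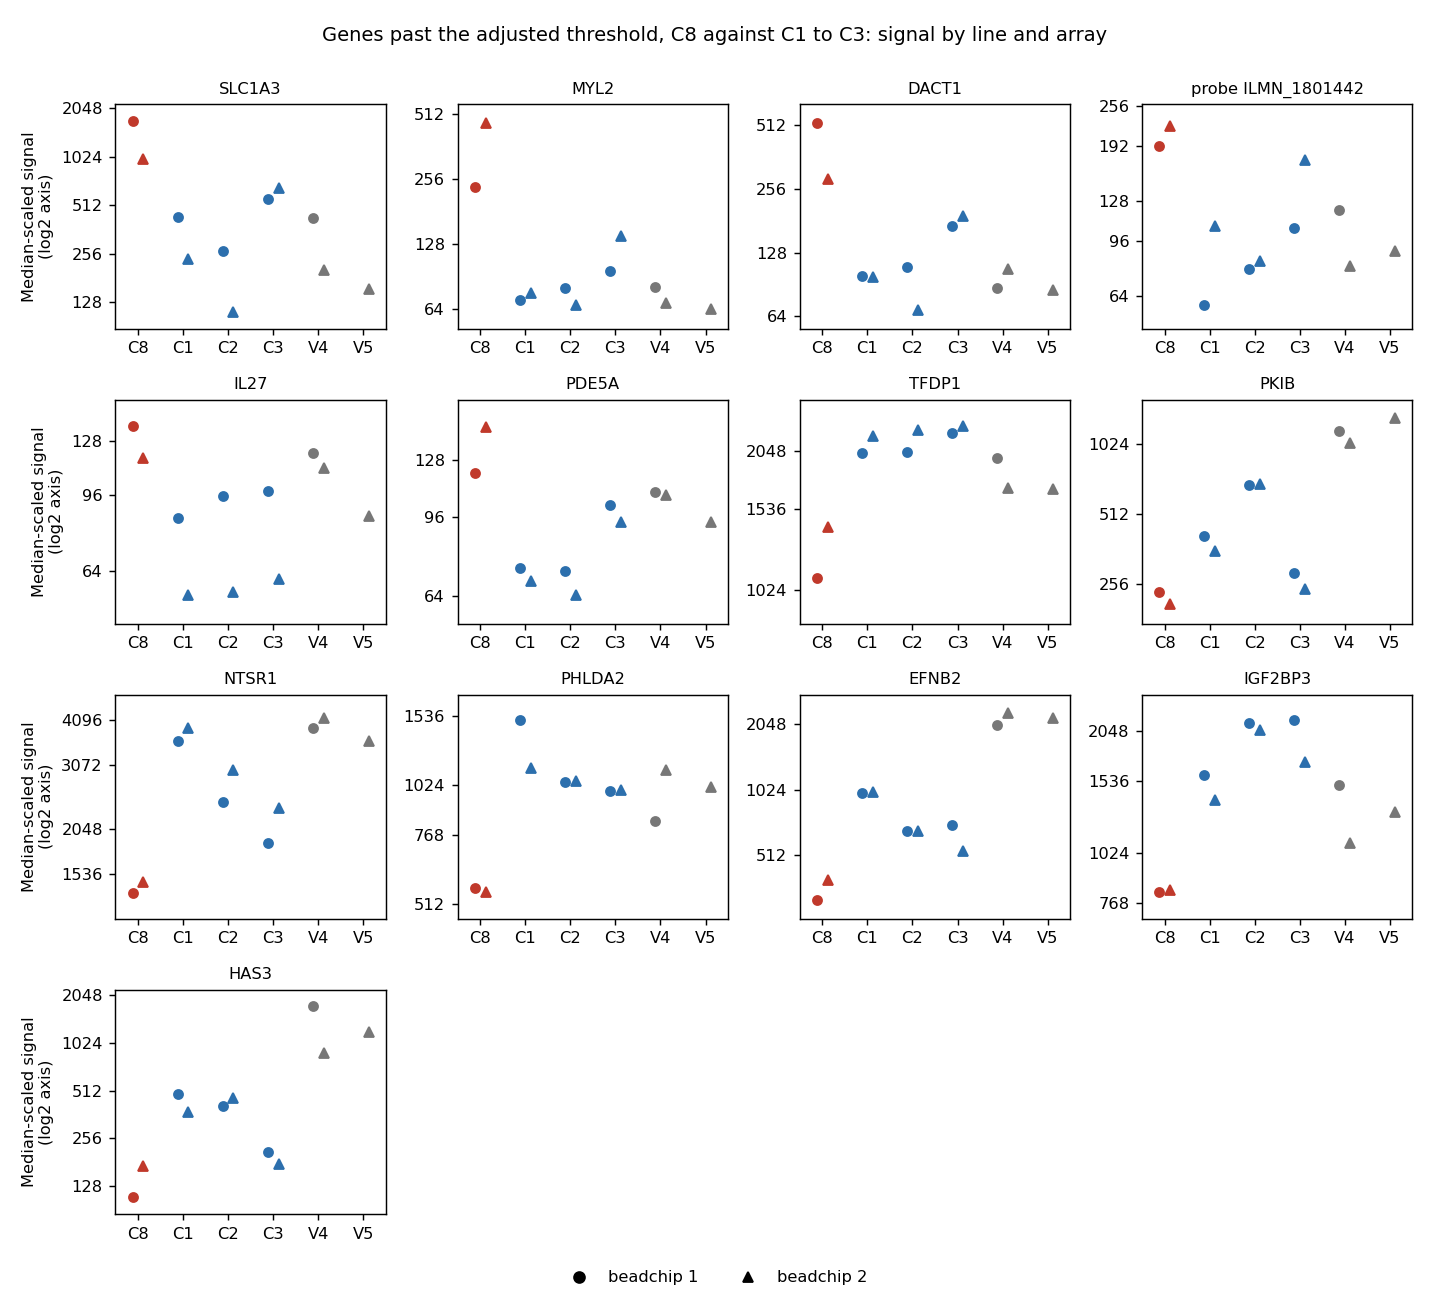
Median-scaled signal on a log2 axis of the 13 genes past the adjusted threshold, ordered from the largest rise to the largest fall, with 1 point per array, circles for beadchip 1 and triangles for beadchip 2. C8 stands apart from C1 to C3 in every panel; for EFNB2, HAS3, PKIB and NTSR1 the vector lines lie at the opposite end of the range from C8.

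Beyond the called genes, C8 was above all 3 other clones on both beadchips for 422 genes (4.07%) and below them for 2215 genes (21.4%). This imbalance depended on the scaling. With quantile normalization the counts were 839 above (8.1%) and 1043 below (10.1%), so that the share above was 16% of the genes apart after division by the median and 44.6% after quantile normalization. The share above also changed with the filter, for reasons that were not tested. The 96 genes that passed only through C8 had to have a higher mean there. After division by the median, the share above was 10.3% with a stricter filter, 15.2% with a filter of 2 in 6 lines and 23.5% without a filter. The median difference of all genes was -0.10 on the log2 scale after division by the median and -0.01 after quantile normalization. Being apart was not particular to C8. Each other clone was set against the remaining 3 in the same way. After division by the median, 1038 genes lay above and 558 below for C1, 1143 and 534 for C2, and 1014 and 707 for C3. With quantile normalization the counts were 846 and 852 (C1), 856 and 731 (C2), and 931 and 915 (C3). Counts of genes apart in what follows are to be read against the shares of 4.07% and 21.4%, or 8.1% and 10.1% with quantile normalization. Most are given under both scalings.

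A gap of at least 1.5-fold to the nearest other clone on both beadchips was seen for 4 genes above (0.0386%) and 5 below (0.0482%), and with quantile normalization for 4 above (0.0386%) and 2 below (0.0193%). After division by the median those above were MYL2, SLC1A3, TNNC1 and CLOCK, and those below were PHLDA2, IGF2BP3, TFDP1, PER2 and a probe without a symbol (ILMN_1785756). Under the same scaling such a gap was seen for 8 genes above and 1 below in C1, 7 and 9 in C2, and 3 and 1 in C3. CLOCK and PER2 are opposing parts of the circadian clock: CLOCK is a transcriptional activator and PER2 a repressor whose gene it activates. CLOCK had 652 and 547 in C8. In the other clones it had 279 and 93.2 (C1), 416 and 107 (C2), 364 and 106 (C3), all lower on beadchip 2, while the vector lines had 501, 531 and 252. PER2 had 315 and 347 in C8, 484 to 655 in C1 to C3 and 493 to 684 in the vector lines. Neither passed the adjusted threshold (differences of 1.66 and -0.75 on the log2 scale, adjusted p = 0.107 and 0.0839), and both were singled out after their values were seen.

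The differences of C8 repeated only loosely between the harvests. Across the 10363 genes, the differences on beadchip 1 and beadchip 2 had a Pearson r of 0.135 for C8 against the other clones. When C1, C2 or C3 was set against the other 3 clones in the same way, r was 0.291, 0.36 and 0.408. These are descriptions across genes that share arrays, and genes are not independent replicates. The same test gave 10 genes for C1 (0.0965%), 54 for C2 (0.521%) and none for C3 (limma, with 750 genes higher and 406 lower at an unadjusted p under 0.05), in comparisons that share arrays with that of C8.

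**Figure D3:**
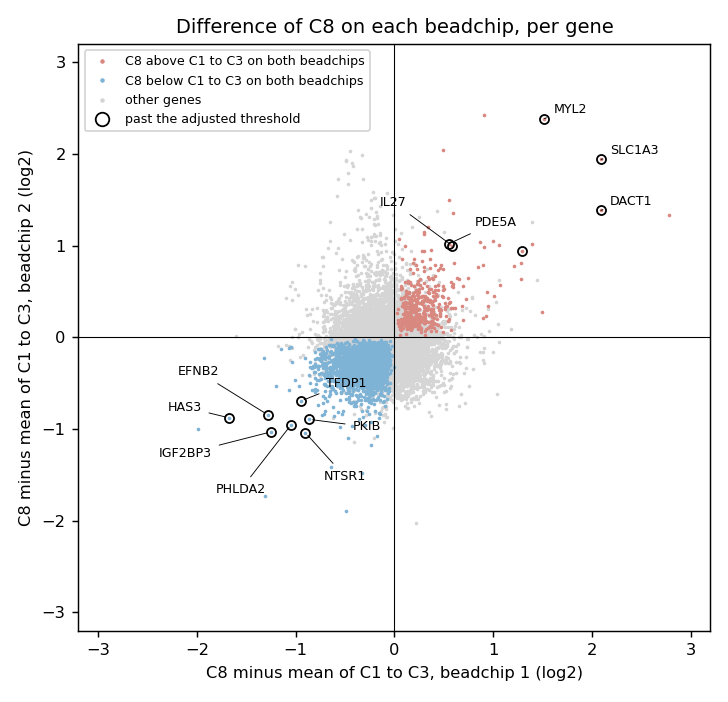
Difference between the C8 array and the mean of C1 to C3 on the log2 scale, beadchip 1 on the horizontal and beadchip 2 on the vertical axis, 1 point for each of 10363 genes. Genes above or below all other clones on both beadchips are coloured, and the circled genes past the adjusted threshold lie at the outer corners of the cloud, which has an r of 0.135.

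Among 32 lists of pathway, complex and cell type genes, the 2 lists of cell division genes had the lowest median differences under both scalings. They also had the largest shares of genes below the other clones after division by the median, while with quantile normalization the share of S phase genes (28.9%) was close to that of intestinal differentiation genes (30%, 3 of 10). A dividing cell copies its DNA in S phase with the MCM helicase, DNA polymerases and the enzymes that make deoxynucleotides, and then in G2 and mitosis makes cyclins, kinases and motor proteins that separate the chromosomes. No member of any of the 32 lists passed the adjusted threshold, so the counts below describe the lists and are no calls.

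Of 38 genes of G2 and mitosis, 37 had a negative difference, 21 (55.3%) lay below all other clones on both beadchips, against 21.4% of all genes, and none lay above. With quantile normalization 15 lay below (39.5%), against 10.1%. At an unadjusted p under 0.05, 31 were lower and none was higher, beside 15.1% and 3.39% of all genes. The median difference of the list was -0.44 on the log2 scale, against -0.10 over all genes, and it was -0.31 against -0.01 with quantile normalization. It was larger on beadchip 1 (-0.65) than on beadchip 2 (-0.24).

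AURKB, the Aurora kinase that corrects the attachment of chromosomes to the spindle, had 678 and 943 in C8, against 1128 and 1356 (C1), 1126 and 1268 (C2), 1259 and 1282 (C3). CKS2, a small subunit of cyclin-dependent kinases, had 1288 and 1632 in C8 and 1859 to 2342 in C1 to C3. CCNB1, the cyclin that drives entry into mitosis, had 404 and 520 in C8 and 548 to 859 in C1 to C3. In all of these the C8 arrays were below all arrays of the other clones, with differences between -0.56 and -0.68 and adjusted p between 0.0883 and 0.107. Cyclin A2 (CCNA2) had 664 and 913 in C8 and 867 to 1385 in C1 to C3, so that its second C8 array exceeded the first array of C1 and the order held only within a beadchip. These genes were named after their values were seen, by their p.

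Of 45 genes of S phase and replication, 43 had a negative difference, 23 (51.1%) lay below all other clones on both beadchips, against 21.4% of all genes, and 1 (RFC3) lay above. With quantile normalization 13 lay below (28.9%), against 10.1%. The median was -0.29, with -0.27 on beadchip 1 and -0.34 on beadchip 2, and -0.19 with quantile normalization. RFC5, a subunit of the clamp loader, had 1360 and 1553 in C8 and 1940 to 2479 in C1 to C3. TYMS, thymidylate synthase, had 1752 and 2145 in C8 and 2374 to 3558 in C1 to C3. The C8 arrays of both genes lay below every array of the other clones (differences of -0.60 and -0.54, adjusted p = 0.0839 and 0.0881). Thymidine kinase TK1, with 1580 and 1369 in C8 and 1788 to 2480 in C1 to C3, did the same.

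The vector lines also lay below C1 to C3 for these genes. The median difference between the vector lines and C1 to C3 was -0.424 (log2) for G2 and mitosis and -0.385 for S phase. Over all genes it was -0.054. With quantile normalization the values were -0.351 and -0.289, beside -0.008 over all genes. After division by the median, C8 differed from the vector lines by a median of -0.01 and 0.08, beside -0.04 over all genes. The vector arrays differed from each other, however. Relative to the mean of the 4 gelsolin clones on the same beadchip, the median over the G2 and mitosis genes was -0.49 and -0.18 in the C8 arrays, 0.01 in V4 on beadchip 1, and -0.68 in V4 and -0.33 in V5 on beadchip 2. In C1, C2 and C3 it ran between -0.04 and 0.32. For S phase it was -0.21 and -0.25 in C8, -0.08 to 0.16 in C1 to C3, and -0.18, -0.58 and -0.21 in the vector lines.

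The promoters of the members of both lists with the smallest p, AURKB and CKS2 for G2 and mitosis and RFC5 and TYMS for S phase, are printed to show which of the known control elements of such genes they carry. The sequences are from RefSeq (GRCh38.p14), 250 bases before to 50 bases after the start of transcription, on the strand of the gene, at chr17:8210176-8210475 (minus strand) for AURKB, chr9:89310945-89311244 (plus strand) for CKS2, chr12:118016453-118016752 (plus strand) for RFC5 and chr18:657403-657702 (plus strand) for TYMS. For AURKB the first of its listed start sites is shown. Capitals mark CCAAT boxes (letters CCAAT), the cell cycle homology region of mitotic genes (letters TTTGAA) and E2F words (letters TTTCCCGC, TTTCGCGC, TTTGCCGC or TTTGGCGC), searched on both strands. No 2 of them overlap in these promoters.
AURKB: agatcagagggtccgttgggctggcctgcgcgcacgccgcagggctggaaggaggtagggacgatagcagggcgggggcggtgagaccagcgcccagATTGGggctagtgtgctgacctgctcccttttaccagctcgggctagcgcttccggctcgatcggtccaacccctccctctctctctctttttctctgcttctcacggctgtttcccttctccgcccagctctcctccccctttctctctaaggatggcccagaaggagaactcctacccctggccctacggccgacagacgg
CKS2: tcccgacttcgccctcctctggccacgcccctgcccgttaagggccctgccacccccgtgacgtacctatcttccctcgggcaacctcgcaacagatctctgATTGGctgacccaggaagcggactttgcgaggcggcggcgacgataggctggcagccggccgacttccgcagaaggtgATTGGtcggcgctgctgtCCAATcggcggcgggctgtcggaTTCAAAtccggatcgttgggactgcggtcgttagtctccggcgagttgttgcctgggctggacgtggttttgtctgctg
RFC5: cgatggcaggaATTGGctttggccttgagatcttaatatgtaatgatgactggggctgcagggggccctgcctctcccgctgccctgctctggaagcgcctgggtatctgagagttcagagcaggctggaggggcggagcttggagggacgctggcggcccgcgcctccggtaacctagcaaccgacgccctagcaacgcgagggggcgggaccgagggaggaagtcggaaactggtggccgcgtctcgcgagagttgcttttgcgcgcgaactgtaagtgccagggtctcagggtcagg
TYMS: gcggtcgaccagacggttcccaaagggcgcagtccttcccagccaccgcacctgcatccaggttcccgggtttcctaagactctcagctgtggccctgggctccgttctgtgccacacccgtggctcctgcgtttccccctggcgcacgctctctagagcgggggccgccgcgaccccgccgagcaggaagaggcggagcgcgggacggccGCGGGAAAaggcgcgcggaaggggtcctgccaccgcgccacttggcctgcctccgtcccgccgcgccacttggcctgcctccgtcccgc

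CKS2 held 3 CCAAT boxes and 1 cell cycle homology region, AURKB and RFC5 held 1 CCAAT box each, and TYMS held 1 E2F word on the opposite strand. Over the list, promoters were found for 32 of the 38 genes of G2 and mitosis. Of these, 87.5% held a CCAAT box, 68.8% the homology region and 9.38% an E2F word. Of the 38 matched genes of S phase, 57.9% held a CCAAT box, 2.63% the homology region and 47.4% an E2F word. Over the 27305 genes with a promoter of this length the shares were 39.7%, 18.2% and 3.99%. A match describes the letters and is not evidence of binding in these cells.

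**Figure D4:**
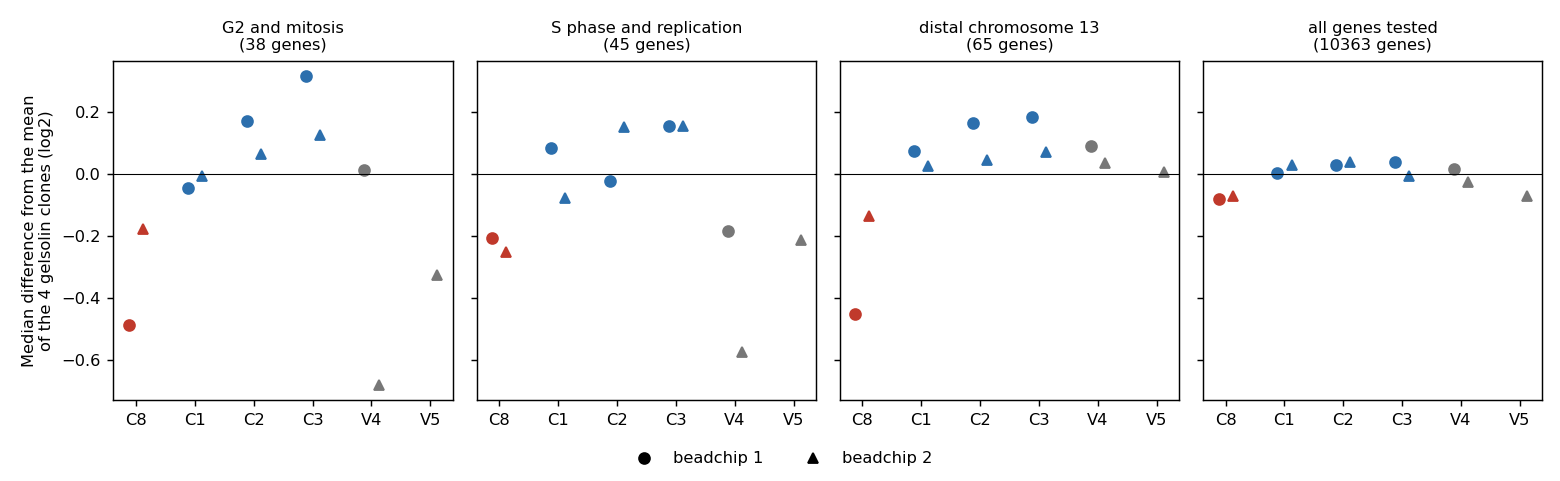
Median over the genes of a set of the log2 difference between an array and the mean of the 4 gelsolin clones on the same beadchip, after division by the array median, for genes of G2 and mitosis, of S phase, of distal chromosome 13 and for all genes tested; circles are beadchip 1 and triangles beadchip 2. C8 lies below C1 to C3 in each set, the vector lines lie low for the cell division genes on beadchip 2 and near 0 for distal chromosome 13.

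Several other lists also held more genes below than the 21.4% of all genes, or 10.1% with quantile normalization. Nucleotide synthesis, which shares TYMS, RRM1 and RRM2 with the S phase list, had 15 of 30 genes below all other clones on both beadchips (50%) and 7 with quantile normalization (23.3%). For actin regulators, the group to which gelsolin itself belongs, the counts were 18 of 48 (37.5%) and 9 (18.8%). CAPZA1, a subunit of the protein that caps actin filaments at the same end as gelsolin, had 207 and 207 in C8 and 273 to 442 in C1 to C3, and FSCN1, the bundling protein fascin, had 5452 and 5082 in C8 and 6500 to 8934 in C1 to C3. In both genes C8 lay below every other clone under both scalings (differences of -0.70 and -0.57, adjusted p = 0.0839 and 0.093). Only 2 actin regulators (4.17%, beside 4.07% of all genes) lay above the other clones, and 1 of them was GSN, the gene by which C8 is described.

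Genes of the endoplasmic reticulum chaperones lay below in 11 of 26 cases (42.3%) and in 4 with quantile normalization (15.4%). Those of oxidative phosphorylation lay below in 22 of 69 cases (31.9%) and in 7 with quantile normalization (10.1%), the share of all genes. The median difference of oxidative phosphorylation was -0.17, and -0.01 with quantile normalization, beside -0.10 and -0.01 over all genes. Interferon-stimulated genes had a median of 0.12, and of 0.22 with quantile normalization. Of these 34 genes, 0 lay above all other clones, and 1 did with quantile normalization, beside 4.07% and 8.1% of all genes. Genes of MHC class I presentation had medians of 0.05 and 0.19, and 2 of 18 (11.1%) lay above, or 4 with quantile normalization. Cytosolic ribosomal protein genes had a median of -0.06 and of 0.02 with quantile normalization, with 6 of 60 below (10%) and 1 with quantile normalization (1.67%).

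The genes of the urokinase cascade, which cleaves plasminogen to the matrix-degrading protease plasmin, gave no difference past the threshold. PLAU, the urokinase-type plasminogen activator, had 2129 and 2407 in C8, 3181 and 5276 (C1), 2422 and 2129 (C2), 1307 and 1779 (C3), so that C8 lay inside the range of the other clones. The difference from C1 to C3 was -0.10 ± 0.16 (SE, log2). The vector lines had 3515, 2710 and 2017 for PLAU. The receptor PLAUR had 530 and 582 in C8, 470 to 1136 in C1 to C3 and 584 to 837 in the vector lines. SERPINF2, the plasmin inhibitor α2-antiplasmin, had 108 and 87 in C8, 75.6 to 100 in C1 to C3 and 69.4 to 85.5 in the vector lines. SERPINF2 passed the filter on dim probes through C8 alone, so that its mean had to be higher there. Plasminogen activator inhibitors 1 and 2 are not analysed here. PLAT, the tissue-type activator, was the single gene of the 11 tested in this list that lay above the other clones on both beadchips, with 227 and 487 in C8 and 162 to 391 in C1 to C3 (difference 0.66 ± 0.18, SE, log2; adjusted p = 0.128). With quantile normalization 2 genes of the list lay above.

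Both TFDP1 and EFNB2 lie toward the end of the long arm of chromosome 13, and the genes around them were low in C8 as well. Genes were ordered along each chromosome by the RefSeq annotation and taken in consecutive blocks of 16, a choice made after the values were seen. Of 577 full blocks, the 4 with the lowest median difference were the 4 neighbouring blocks from VPS36 to CDC16 on chromosome 13, under division by the median (medians of -0.37, -0.44, -0.39 and -0.31 in order along the chromosome) and under quantile normalization (-0.28, -0.30, -0.29 and -0.21). The blocks before VPS36 on the same chromosome had medians between -0.12 and 0.12. The place of these 4 blocks came mainly from beadchip 1. On that beadchip alone they were again the lowest of all under both scalings, whereas on beadchip 2 they ranked 43, 234, 12 and 131 from the lowest, and 48, 356, 4 and 81 with quantile normalization.

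The 65 genes from VPS36 to CHAMP1, the last gene tested on this chromosome, had a negative difference in 60 cases. Of these 65 genes, 38 (58.5%) lay below all other clones on both beadchips, against 21.4% of all genes, and none lay above. With quantile normalization 29 (44.6%) lay below, against 10.1%. The median difference was -0.38, with -0.60 on beadchip 1 and -0.18 on beadchip 2. Of the 96 genes from TPTE2 to NEK3, 9 lay below and 10 above, with a median of -0.01, and with quantile normalization 8 lay below and 16 above. At an unadjusted p under 0.05 (limma), 42 of the 65 genes were lower and none was higher, beside 15.1% and 3.39% of all genes. TFDP1 and EFNB2 were the 2 that passed the adjusted threshold, which 0.0675% of all genes passed as lower. With quantile normalization neither passed (limma, adjusted p = 0.0791 for TFDP1 and 0.0549 for EFNB2), and no gene of the stretch did. Because the stretch was delimited by these values, no test was made of it.

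CHAMP1, a protein of chromosome alignment in mitosis, had 579 and 700 in C8 and 921 to 1167 in C1 to C3, with 1003 to 1131 in the vector lines. ZIC2, a zinc finger transcription factor of neural development, had 410 and 472 in C8, 611 to 859 in C1 to C3 and 834 to 1097 in the vector lines. NDFIP2, an adaptor of Nedd4 ubiquitin ligases, had 924 and 1085 in C8, 1431 to 1625 in C1 to C3 and 1214 to 1422 in the vector lines. LAMP1, the abundant membrane protein of lysosomes, had 6504 and 6082 in C8, 7149 to 9343 in C1 to C3 and 7717 to 8231 in the vector lines. In each of these the C8 arrays lay below all 9 other arrays, and none passed the adjusted threshold (adjusted p between 0.078 and 0.143).

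Not every gene of the stretch was lower. SPRY2, an inhibitor of receptor tyrosine kinase signalling, had 204 and 404 in C8 and 154 to 349 in C1 to C3, and MBNL2, a splicing factor, had 422 and 526 in C8 and 304 to 645 in C1 to C3. When the lines were compared with each other, C8 alone was displaced. The stretch was delimited by low values of C8, so a low value of C8 over it was fixed by that choice. After quantile normalization the C8 arrays lay at -0.34 on beadchip 1 and -0.11 on beadchip 2 against the mean of the 4 gelsolin clones. Against the median of the other 5 lines, after quantile normalization, the median over the 65 genes was -0.28 in C8, 0.02 in C1, 0.03 in C2, 0.08 in C3, 0.02 in V4 and 0.02 in V5. After division by the median, the vector arrays lay at 0.09 (V4, beadchip 1), 0.04 (V4, beadchip 2) and 0.01 (V5, beadchip 2) for this stretch. These values are relative to the mean of the 4 gelsolin clones. On beadchip 1, where the stretch was lowest in C8, V4 lay at 0.01 for G2 and mitosis and at -0.18 for S phase. Whether the low stretch and the low cell division genes of C8 are related was not tested.

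**Figure D5:**
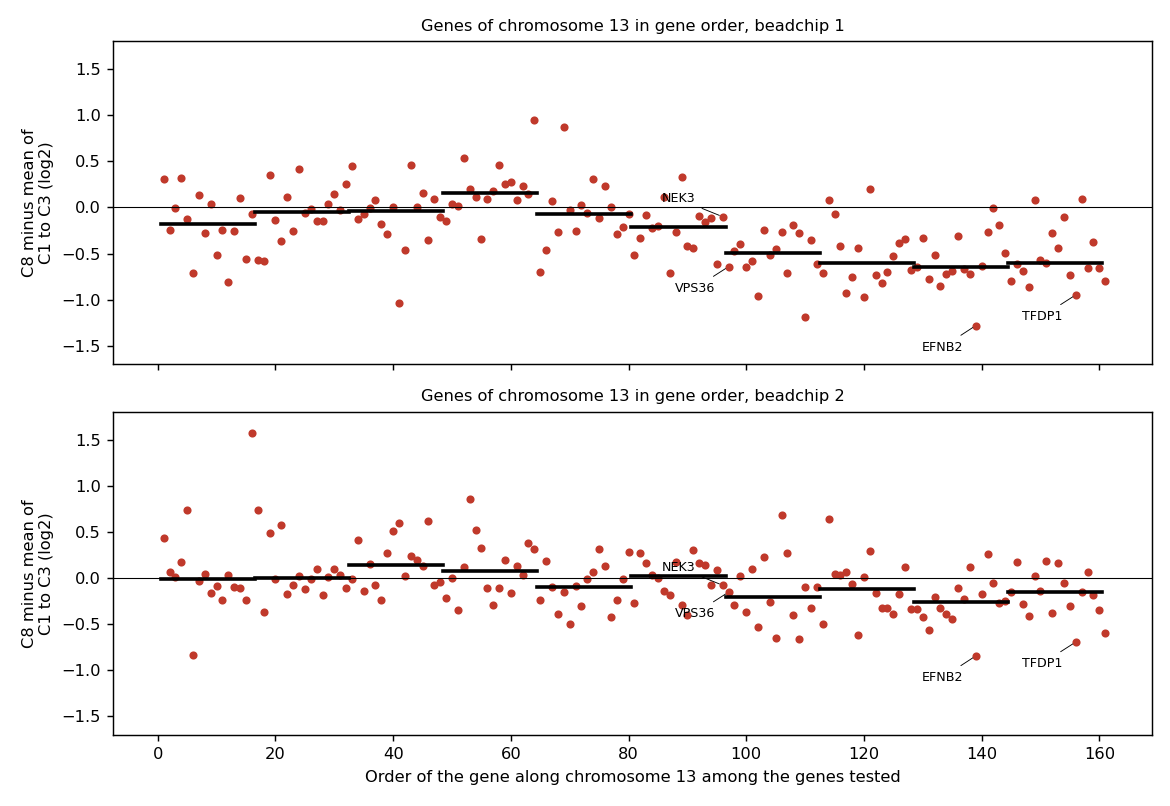
Difference between C8 and the mean of C1 to C3 on the log2 scale for the 161 genes tested on chromosome 13, in gene order, on beadchip 1 (top) and beadchip 2 (bottom); points are genes and bars are medians of consecutive blocks of 16. From VPS36 on, the block medians lie between -0.49 and -0.64 on beadchip 1, where the median of all genes was -0.11. On beadchip 2 they lie between -0.12 and -0.26, beside the -0.10 of all genes. With quantile normalization they lie between -0.006 and -0.20 on beadchip 2, where the median of all genes was -0.03 (not plotted). The lowest of them there, TM9SF2 to CARS2, ranked 12 of 577 blocks, and 4 with quantile normalization.

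Chromosome X also had a low median, -0.19 over 306 genes and -0.11 with quantile normalization, but here another clone was displaced. Against the other lines, after quantile normalization, the median over the X-linked genes was -0.03 in C8, 0.27 in C3 and between -0.06 and 0.01 in the other lines. Without C3 the median difference of C8 was -0.10. No other chromosome had a median outside the range from -0.13 to -0.07.

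Set against the vector lines, C8 lay farther from them than the mean of C1 to C3 did for 12 of the 13 called genes, with IL27 as the exception. Because genes were called for a large difference between C8 and C1 to C3, this count is partly fixed by that choice and is a description. The share was 72.5% for genes above all other clones on both beadchips, 58% for those below (64.7% with quantile normalization), which were chosen in a like way, and 55.8% for all genes tested.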

How the data were processed

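Total RNA of stably transfected HCT116 lines was hybridised to Illumina HumanRef-8 beadchips. The deposited intensity values are average bead signals of 20596 probes, summarised by the authors in BeadStudio without normalization between arrays. Their background handling was not given in the sources used here. The deposited ratio values are the same signals divided by the 50th percentile of the array and a baseline per probe by the authors in GeneSpring, and served as an alternative. No detection p came with the signals.

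Intensities were divided by the array median, multiplied by the common median and put on the log2 scale. Of the probes, 18389 had 1 gene symbol in the platform annotation, 0 had several and 2207 had none. The brightest probe stood for a gene. C8 was contrasted with the mean of C1, C2 and C3 in limma 3.58.1 (R 4.3.3; 8 arrays, clone and beadchip in the model, eBayes with trend and robust, 2-sided, Benjamini-Hochberg over 10363 genes), which was tested on simulated data. The block follows the replicate number, which coincides with the beadchip in the array names. Deviations of same-numbered arrays from their clone means correlated between -0.282 and 0.583 (mean 0.183). The number of arrays limits the precision, and nothing in the labels separates biological from technical spread between harvests.

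Named genes are GSN, FEN1, the urokinase genes, and up to 15 rises and 15 falls past the threshold and apart on both beadchips, plus up to 4 members of a list past it. Other genes were named after their values were seen. The members and lists were chosen with earlier results of these data known. Alternatives were other normalizations, filters, models and left-out arrays. Wild-type cells and another V5 array are not analysed here.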

Additional observations from a re-analysis of the deposited data

Results flagged for a closer look

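PHLDA2 had 1 array far from the rest of its group among the 6 arrays of C1 to C3. The first array of C1 had a signal of 1505, the next was 1135 and the lowest was 993. The gap made up 0.679 of the range on the log2 scale, above the critical value of Dixon's test for 6 independent arrays, which chance exceeds in about 1 of 20 groups. These 6 arrays are not independent, since they are paired harvests of 3 clones and the array at 1135 is the other one of C1. The critical value is therefore only a guide. Both C8 arrays, 563 and 549, lay below the lowest of the 6.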

How the results depend on the processing

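The count of 13 genes depended on the processing. It was 7 with quantile normalization, 8 with normexp and quantile normalization, 38 without a filter on dim probes, 7 with plain eBayes, 5 with the ratio table, 6 with no replicate block, and 46 within beadchip 2 (43 higher). It was 0 within beadchip 1, with lines as replicates and with an unmoderated test of the same model (1264, 1318 and 1494 genes at an unadjusted p under 0.05, limma), while 10, 15 and 19 genes passed with a stricter filter, a filter over 6 lines and all 11 arrays. Leaving out 1 array gave 0 to 279 genes: 279 and 153 without C8 replicate 1 and 2, 0 without either array of C1, 35 and 23 without those of C2, and 4 and 6 without those of C3. It gave 0 without clone C1, 15 without C2 and 17 without C3. The cause of these shifts was not tested, except that fewer arrays entered those fits. The 13 genes kept their direction wherever they were tested (11 of them passed the stricter filter), and of 286 values that the 12 with a symbol took under an alternative, 135 no longer passed the threshold and 151 did. A gap of 1.5-fold left 9 genes apart. With no replicate block, 4 genes passed for C1 and 17 for C2. The GSN difference was 0.42 with quantile normalization and 0.41 with normexp, chosen after seeing the data like the settings without a clone, and the share of lower genes farther from the vector lines was 64.7%. The S phase median was -0.193 with quantile normalization, -0.192 with normexp, -0.34 without C1 and -0.238 without C3. The median of chromosome 13 as a whole was -0.119, and -0.257 within beadchip 1. The G2 and mitosis and distal chromosome 13 medians stayed within the spread between beadchips, which was wide. It ran from -0.65 to -0.24 for G2 and mitosis and from -0.60 to -0.18 for distal chromosome 13. The 2 medians were -0.44 and -0.38 after division by the median, and -0.31 and -0.28 with quantile normalization. Dim probes limit what can be seen near the common median.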
